A study of Mus musculus with 3 samples.

Results

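Pericytes were sought among single nuclei of the mouse hippocampus by the RNA of 7 genes that mark them: Atp13a5, Vtn, Pdgfrb, Abcc9, Ebf1, Slc38a11 and Rgs5. A nucleus was taken as a pericyte when at least 3 of these 7 genes had a UMI (a unique molecular identifier, which stands for 1 captured RNA molecule) and when markers of other cell types were nearly absent. The limits were at most 1 UMI of Slc17a7, Gad1, Gad2 and Plk5 together (neurons), 0 UMIs of Aqp4, Csf1r and Mog (glia), at most 1 UMI of Ranbp3l, Slc6a13 and Slc47a1 together (fibroblasts) and at most 1 UMI of Flt1 and Cldn5 together (endothelium). Of 35322 nuclei, 78 met the rule: 50 of 12192 in the doxorubicin plus ACY-1083 library, 20 of 12221 in the doxorubicin library and 8 of 10909 in the control library.

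Pericytes are mural cells that sit on capillaries inside the basement membrane they share with the endothelium. In the brain they take part in forming the blood-brain barrier and in setting capillary diameter. Endothelial PDGF-B recruits them through the receptor PDGFRβ, NOTCH3 signalling maintains mural cells, and potassium channels built from KCNJ8 and ABCC9 set their membrane potential. Smooth muscle cells of arterioles share many of these genes and add a contractile programme of Acta2, Myh11 and Tagln.

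The study addressed inhibition of the deacetylase HDAC6 after doxorubicin, a chemotherapy drug that poisons topoisomerase II. The groups were mice given doxorubicin and ACY-1083 (an HDAC6 inhibitor), mice given doxorubicin, and untreated control mice. Each group was 1 library of nuclei released with Triton X-100 from the pooled frozen hippocampi, both sides, of 4 mice, read with the 10x 3' version 3 chemistry. Dose, schedule, age, sex and strain are not given in the labels, and since each group is 1 pooled library, groups are compared without a test and intervals cover counting error only.

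The libraries differed in depth, with a median of 3912.5 UMIs per nucleus in the doxorubicin plus ACY-1083 library, 1485 in the doxorubicin library and 1487 in the control library, and each held no nucleus under 500 UMIs. Per the file headers, the doxorubicin plus ACY-1083 matrix came from Cell Ranger 5.0.0 and the others from Cell Ranger 4.0.0, so that program version and treatment cannot be told apart. Pairs of libraries shared 29 to 46 barcodes by letters alone, and 1 of these was a pericyte nucleus, in the control library.

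Pericyte nuclei were shallow. Their UMIs ran from 594 through a median of 1043 to 12458 in the doxorubicin plus ACY-1083 library, from 505 through 749.5 to 3456 in the doxorubicin library, and from 529 through 624.5 to 2084 in the control library. Under 1000 UMIs were found in 22 of 50, 13 of 20 and 7 of 8 pericyte nuclei of the same libraries, against 8.92%, 27.4% and 27.1% of all nuclei there. All UMIs of the pericyte nuclei came to 68528, 23443 and 6550, so that 1 UMI stood for 14.6, 42.7 and 153 CPM (UMIs of a gene per 1000000 UMIs, summed over the nuclei). The deepest nucleus supplied 18.2%, 14.7% and 31.8% of these UMIs.

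The label was checked on genes that the rule did not use. Of 22 other pericyte genes, 20 were at least 2-fold higher in the pericyte nuclei than in all other nuclei of the doxorubicin plus ACY-1083 library, with 20 CPM added to both levels, where 5.73% of all 26035 genes were. In the doxorubicin library it was 18 of 22, where 8.95% of all genes were, and in the control library 18 of 22, where 8.72% were. A single UMI can carry a gene past 2-fold in the control library, and also in the doxorubicin library, as for Colec12 (1 UMI, log2 difference 1.37). The counts of both libraries therefore say little beyond detection. At least 1 UMI of these 22 genes was found in 49 of 50, 17 of 20 and 8 of 8 pericyte nuclei. The share of other nuclei with such a UMI was not counted, so this alone does not mark pericytes. Summed, the 22 genes stood at 6727 against 553 CPM in other nuclei, 2346 against 276 CPM and 4733 against 279 CPM. Cd248 was at 0 in the doxorubicin plus ACY-1083 and doxorubicin pericytes, Notch3 and Pth1r were at 0 in the doxorubicin pericytes, and P2ry14, Mcam, Colec12 and Ggt1 were at 0 in the control pericytes. Some nuclei held more RNA of another type than of pericytes: UMIs of the neuron list or of the astrocyte list outnumbered those of the rule and other pericyte genes together in 4 of 50, 7 of 20 and 1 of 8 nuclei, with up to 123, 122 and 50 neuron UMIs and up to 42, 29 and 0 astrocyte UMIs in one. Without these nuclei, 20, 18 and 17 of the 22 genes were past 2-fold.

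RNA of other cell types was found in these nuclei. The endothelial genes Cdh5 and Tek were at 0 in the pericyte nuclei of each library, and Flt1, a VEGF receptor, had at most 1 UMI in any nucleus, as the rule requires. Summed over 12 endothelial genes, 21 of 50, 4 of 20 and 4 of 8 pericyte nuclei had a UMI in the doxorubicin plus ACY-1083, doxorubicin and control libraries. Their CPM were above those of the other nuclei, at 423 against 80.4, 640 against 84.5 and 611 against 66.7 CPM, and 1 doxorubicin nucleus carried 11 of the 15 UMIs there (187 CPM without it). Fibroblast genes, 12 in the list, stood at 584 against 124, 555 against 119 and 763 against 111 CPM. Only 5, 5 and 3 of the 12 had a UMI in pericytes, and median log2 differences were -0.13, -0.13 and -0.21. Cped1 made up most of the sum with doxorubicin plus ACY-1083. The fibroblast genes Slc47a1, Col1a1 and Bnc2 were at 0 throughout. Astrocyte genes, 8 in the list, stood at 1707 against 594, 3498 against 1050 and 916 against 951 CPM. RNA of neurons was present in every pericyte nucleus. Its 12 genes summed to a range of 1 to 123 UMIs (median 5) per nucleus in the doxorubicin plus ACY-1083 library, 1 to 122 (median 4.5) in the doxorubicin library and 2 to 50 (median 4) in the control library. As CPM they were lower in pericytes than in the other nuclei, at 5560 against 12898 CPM, 12882 against 21897 CPM and 11908 against 23475 CPM. Without the nucleus that held most of them, the pericytes stood at 4601, 8721 and 6270 CPM. RNA of the choroid plexus, 9 genes led by Ttr, was found in 50 of 50, 19 of 20 and 6 of 8 pericyte nuclei. It was higher there than in the other nuclei, at 4217 against 1064 CPM, 4223 against 3316 CPM and 2137 against 1562 CPM. Thinned to 500 UMIs, Ttr was found in 86.0%, 80.0% and 62.5% of pericyte nuclei and in 24.5%, 63.5% and 36.5% of neurons, and at full depth Ttr stood at 2962 CPM (2569 to 3399) in pericytes and 3315 CPM in endothelial nuclei with doxorubicin plus ACY-1083. The deepest pericyte nucleus, of 12458 UMIs, was also scored as a doublet and held 123 of the 381 neuron UMIs and 86 of the 289 choroid plexus UMIs of its library, and without it the choroid plexus list stood at 3620 CPM.

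The smooth muscle markers Acta2, Myh11 and Tagln were found in 4 of the 78 nuclei. The whole contractile list, which also holds Cald1, had a UMI in 43 of 50 doxorubicin plus ACY-1083, 18 of 20 doxorubicin and 7 of 8 control pericyte nuclei. Acta2 (smooth muscle actin), Myh11 (smooth muscle myosin) and Tagln (transgelin) had a UMI in 2 of 50, 1 of 20 and 1 of 8 pericyte nuclei of the same libraries. In the doxorubicin plus ACY-1083 library this was 1 UMI of Myh11 in each of 2 nuclei, with Acta2 and Tagln at 0. In the doxorubicin library a single nucleus of 2099 UMIs held 3 UMIs of Acta2, 2 of Myh11 and 1 of Tagln, and in the control library a single nucleus of 786 UMIs held 5, 2 and 2. That control nucleus is 1 of only 8. It held 15 of the 21 UMIs of the contractile list in control, which stood at 3206 CPM with it and 1041 CPM without it.

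**Figure D1:**
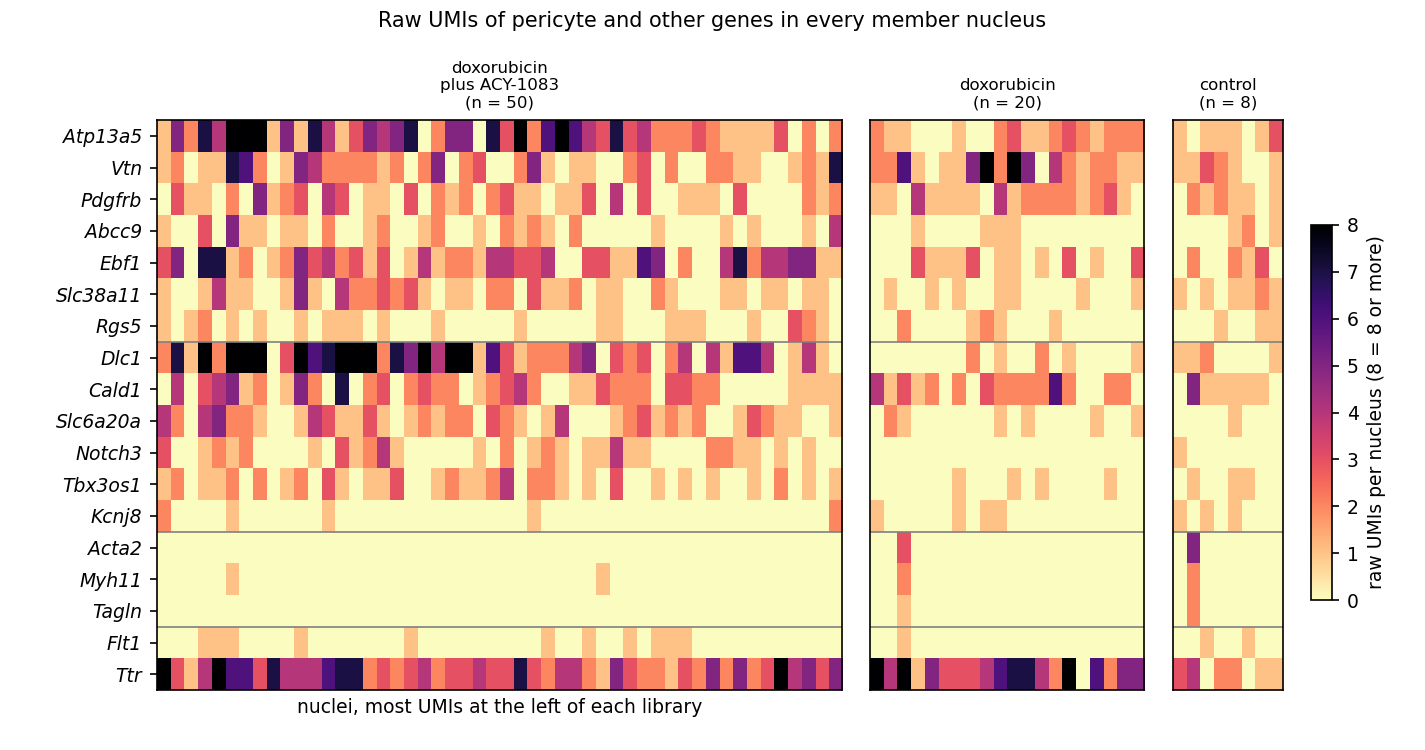
Raw UMIs (colour, capped at 8) of the 7 genes of the rule, 6 other genes, 3 smooth muscle genes, endothelial Flt1 and choroid plexus Ttr (rows) in each of the 78 pericyte nuclei (columns, deepest at the left), for doxorubicin plus ACY-1083 (n = 50), doxorubicin (n = 20) and control (n = 8). Acta2, Myh11 and Tagln appear together in 1 doxorubicin and 1 control nucleus, Vtn reaches 24 UMIs in 1 doxorubicin nucleus, and Ttr is spread over nearly all nuclei.

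The count of rule genes per nucleus shows how close the pericytes lie to the threshold. In the doxorubicin plus ACY-1083 library 11, 13, 13, 8 and 5 pericyte nuclei had 3, 4, 5, 6 and 7 rule genes. In the doxorubicin library the counts were 9, 8, 1, 1 and 1, and in the control library 2, 4, 0, 2 and 0. Just inside the threshold, at exactly 3 genes, 90.9%, 88.9% and 100% of the nuclei also had a UMI of Dlc1, Cald1, Slc6a20a, Notch3, Kcnj8, Higd1b, Tbx3os1 or Art3. Just outside it, 42, 40 and 24 nuclei had exactly 2 rule genes within the same limits, and 73.8%, 57.5% and 33.3% of these had such a UMI. Depth differed between the groups. Median UMIs at exactly 3 and exactly 2 rule genes were 857 and 1975.5, 879 and 801.5, and 1435 and 1004.5 in the same libraries. The share of all nuclei with such a UMI was not counted, so these shares alone do not mark pericytes. The limits on other cell types took out 42 of 92, 19 of 39 and 6 of 14 nuclei with at least 3 rule genes, and the endothelial limit alone took out 12, 11 and 2.

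Pericyte nuclei made up a larger share of the doxorubicin plus ACY-1083 library than of the others. The share was 0.410% (exact 95% interval 0.305 to 0.540) there, 0.164% (0.100 to 0.253) in the doxorubicin library and 0.0733% (0.0317 to 0.144) in the control library. The interval of the doxorubicin plus ACY-1083 library did not overlap the others, and those of doxorubicin and control overlapped. With every nucleus thinned to 500 UMIs before the rule was applied, 40, 16 and 5 nuclei met it, or 0.328% (0.234 to 0.446), 0.131% (0.0749 to 0.213) and 0.0458% (0.0149 to 0.107). Of the thinned sets, 37, 13 and 5 nuclei were pericytes at full depth too. Without the nuclei richer in neuron or astrocyte RNA, the shares were 0.377% (0.276 to 0.503), 0.106% (0.0567 to 0.182) and 0.0642% (0.0258 to 0.132).

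Counts of other kinds ran in the same order of libraries, but they are not counts of pericytes alone. Nuclei with at least 2 UMIs of Vtn, whichever their type, numbered 64 (0.525%), 50 (0.409%) and 24 (0.220%) in the doxorubicin plus ACY-1083, doxorubicin and control libraries, a narrower spread than that of the rule. Vtn is itself a rule gene, and only 24, 12 and 2 of these nuclei were pericytes by the rule. Endothelial nuclei (at least 3 of 11 endothelial genes, with Atp13a5 and Slc38a11 nearly absent) numbered 72, 61 and 34, which put 0.694, 0.328 and 0.235 pericytes beside each endothelial nucleus. In libraries of nuclei without replicates, more cells of a type and more RNA detected per cell cannot be told apart. Atp13a5, Ebf1 and other long genes of the rule were detected at a higher level in the deeper library, as given below, and the part of this in the shares was not tested. Thinning evens the UMIs per nucleus but not the levels of these genes, so it cannot show that part.

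**Figure D2:**
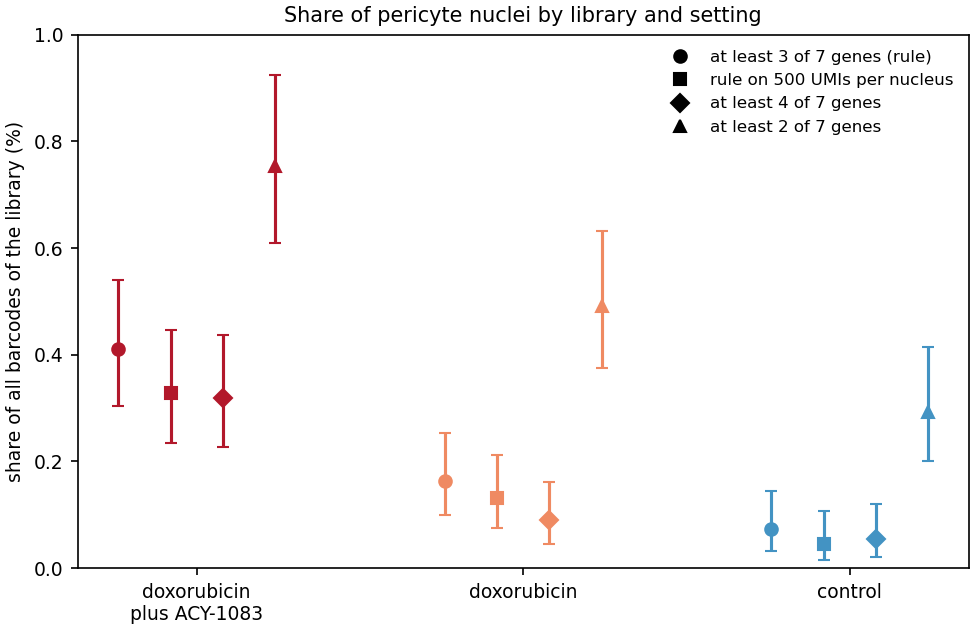
Share of all nuclei of a library (percent, vertical axis) that met the rule, by library, at 3 or more of the 7 genes, on counts thinned to 500 UMIs, at 4 or more genes and at 2 or more genes; bars are exact 95% binomial intervals. The doxorubicin plus ACY-1083 library is highest at each setting, from 0.320% to 0.755%, and control lowest, from 0.0458% to 0.293%.

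The nuclei were chosen by the measured UMIs of the 7 rule genes and of the markers used as limits, so the height of these genes above other nuclei is a description. Atp13a5, a P5-type ATPase (ENSMUSG00000048939, chr16:29231851-29378732, minus strand, GRCm38), had from 0 through a median of 3 to 14 UMIs per pericyte nucleus with doxorubicin plus ACY-1083, 0 through 1 to 3 with doxorubicin and 0 through 1 to 3 in control. It summed to 188, 26 and 8 UMIs, or 2743 CPM (95% Poisson interval 2365 to 3165), 1109 CPM (724 to 1625) and 1221 CPM (527 to 2407). It was found in 46 of 50, 15 of 20 and 6 of 8 nuclei. Thinned to 500 UMIs, 78.0%, 60.0% and 62.5% of pericyte nuclei had it, against 0.271%, 0.205% and 0.0804% of neurons. The source of this RNA in neurons was not tested.

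Vtn, which encodes vitronectin of the extracellular matrix (ENSMUSG00000017344, chr11:78499091-78502324, plus strand), was the rule gene with the most uneven counts. It had 0 through 1 to 7 UMIs per nucleus in the doxorubicin plus ACY-1083 library, 0 through 2 to 24 in the doxorubicin library and 0 through 1 to 3 in the control library. The sums were 87, 71 and 9 UMIs, and 1 doxorubicin nucleus of 879 UMIs carried 24 of the 71. The levels of 1270, 3029 and 1374 CPM placed doxorubicin highest, and without that nucleus doxorubicin stood at 2083 CPM.

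Pdgfrb, the receptor for PDGF-B, was the steadiest of the 7, at 65, 30 and 8 UMIs or 949, 1280 and 1221 CPM with overlapping intervals. Ebf1, a transcription factor also found in other vascular cells, had 132, 19 and 8 UMIs, or 1926, 810 and 1221 CPM. Abcc9, the sulfonylurea receptor subunit of the potassium channel, had 38, 4 and 4 UMIs, Slc38a11, a putative amino acid transporter, 56, 7 and 7, and Rgs5, a regulator of G protein signalling, 25, 7 and 3. Abcc9 and Rgs5 were at 0 in more than 1 in 2 pericyte nuclei of every library, with medians of 0, and no rule gene had a UMI in all pericyte nuclei of a library.

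The genes that led the pericytes of the doxorubicin plus ACY-1083 library were next followed in the others. Of its 25 leading genes by fold over the other nuclei (a choice made after values were seen), 18 were outside the rule, among them Tbx3os1, Slc6a20a, Adap2, Notch3, Adap2os, Morrbid, Dlc1, Rbpms, Egflam, Phldb2, Colec12, Itga1, Arhgap42, Cald1, Plce1 and Dock6. In the doxorubicin library 16 of the 18 had a UMI in pericytes and in the control library 15, 1 and 7 of these on a single UMI. All that had a UMI were at least 2-fold above the other nuclei, as were 29.2% of all genes with a UMI in pericytes with doxorubicin and 63.7% in control. The median log2 differences of the 18 were 2.54 and 3.03. Morrbid was at 0 in the pericytes of both, Notch3 at 0 with doxorubicin, and Colec12 and Dock6 at 0 in control. Adap2 overlaps Adap2os on the other strand, so their reads may not be separable.

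Only 21 genes had at least 10 UMIs in the pericytes of every library, and Cald1 and Ptn were among the highest of these over other nuclei. Cald1 encodes the actin-binding caldesmon, and its 85, 36 and 10 UMIs gave 1240, 1536 and 1527 CPM. Ptn, the growth factor pleiotrophin, had 95, 41 and 10 UMIs, or 1386, 1749 and 1527 CPM. Cald1 lay above the other nuclei by log2 differences of 3.93, 3.49 and 3.45 in the 3 libraries, and Ptn by 3.12, 2.74 and 2.72.

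Set against neighbouring cell types of the doxorubicin plus ACY-1083 library, the pericytes shared some genes with endothelium and others with fibroblast-like nuclei. Atp13a5, Slc38a11 and Abcc9 were at 2743, 817 and 555 CPM in pericytes, at 0 in endothelial nuclei (n = 72) and at 4.54, 4.54 and 0 CPM in fibroblast-like nuclei (n = 97, at least 3 of 10 fibroblast genes). The endothelial and fibroblast-like nuclei were also chosen for near absence of Atp13a5 and Slc38a11. The low levels of these genes there were thus set by the choice, as was their height in pericytes in part. Rgs5 was at 365 CPM (236 to 539) in pericytes and 269 CPM in endothelial nuclei, within its counting interval, but at 4.54 CPM in fibroblast-like nuclei. Ebf1 was at 1926 CPM in pericytes, 976 CPM in endothelial and 354 CPM in fibroblast-like nuclei. Slc6a20a, a transporter of proline, ran the other way, with 1080 CPM in pericytes, 1443 CPM in fibroblast-like and 50.5 CPM in endothelial nuclei. The laminin chain gene Lama2 (627 and 748 CPM) and the scavenger receptor gene Colec12 (613 and 730 CPM) were likewise near equal between pericytes and fibroblast-like nuclei. Cped1, a fibroblast gene outside the limits of the rule, was present in pericytes at 482 CPM and higher in fibroblast-like nuclei, at 1887 CPM.

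**Figure D3:**
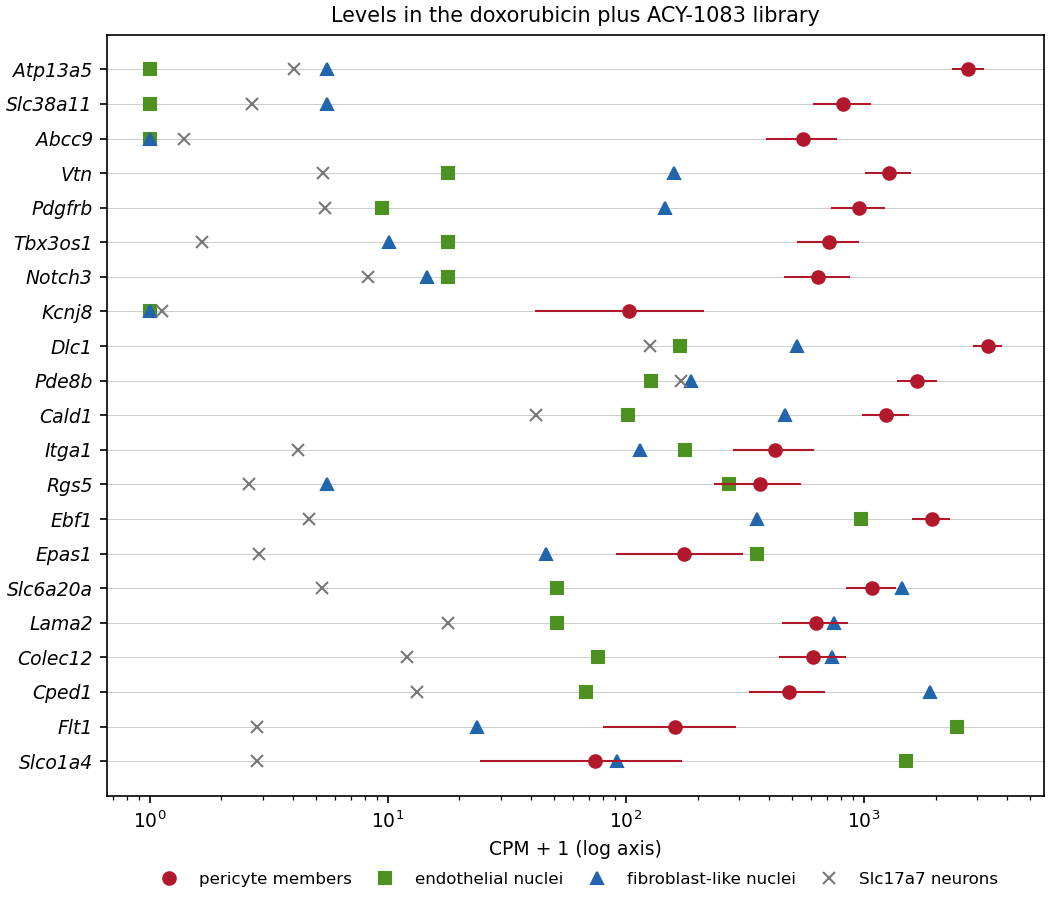
Level of 21 genes (CPM plus 1, log axis) in the doxorubicin plus ACY-1083 library, in 50 pericyte nuclei (circles, with 95% Poisson intervals), 72 endothelial nuclei, 97 fibroblast-like nuclei and 2584 neurons with Slc17a7. Atp13a5, Slc38a11, Abcc9, Notch3 and Kcnj8 stand apart in pericytes, Ebf1 and Rgs5 are also high in endothelium, and Slc6a20a, Lama2 and Colec12 are as high in fibroblast-like nuclei. Atp13a5, Slc38a11 and Abcc9 are genes of the rule. The endothelial and fibroblast-like nuclei were chosen for near absence of Atp13a5 and Slc38a11.

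The lists that follow are read beside the share of all genes at least 2-fold above other nuclei, 5.73% with doxorubicin plus ACY-1083, 8.95% with doxorubicin and 8.72% in control. Among channel genes, those of the KATP channel were nearly absent elsewhere. Kcnj8, its pore subunit, had 7, 4 and 3 UMIs in pericytes of the doxorubicin plus ACY-1083, doxorubicin and control libraries, or 102, 171 and 458 CPM, against 0.322, 0.793 and 0.574 CPM in the other nuclei. Thinned to 500 UMIs its share was 0%, 15.0% and 12.5% of pericyte nuclei, which are counts too low to order. Besides Abcc9, the list of 32 channel and calcium genes had 7 at least 2-fold above other nuclei in the doxorubicin plus ACY-1083 library. The chloride channel Ano1 at 234 against 9.02 CPM and the IP3 receptor Itpr2 at 482 against 39.0 CPM. The median log2 difference of the list was 0.16, with 16 genes above and 16 below the other nuclei.

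Genes of vasoactive signalling included receptors and phosphodiesterases. Of 34 receptors and cyclic nucleotide genes, 13 were at least 2-fold above other nuclei in the doxorubicin plus ACY-1083 library (median log2 difference 0.62). Pde5a, which breaks down cGMP, was at 336 against 11.8 CPM, the endothelin receptor gene Ednra at 234 against 3.16 CPM, the cAMP phosphodiesterase gene Pde8b at 1678 against 182 CPM, and the guanylate cyclase subunit gene Gucy1b1 at 306 against 57.0 CPM. Gucy1b1 was also above other nuclei with doxorubicin (6 UMIs, log2 difference 2.31) and in control (3 UMIs, 3.02). Dlc1, a GTPase-activating protein, was found in 44 of 50, 5 of 20 and 4 of 8 pericyte nuclei, with 227, 7 and 5 UMIs.

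Of 17 smooth muscle contractile genes, 6 were at least 2-fold above other nuclei in the doxorubicin plus ACY-1083 library. They were Cald1, the long RNA Carmn (204 against 0.403 CPM), Mylk, the myosin light chain kinase (175 against 5.36 CPM), Myl9, Lmod1 and Myh11. Acta2, Tagln, Cnn1, Myocd, Pln, Mustn1 and Actg2 were at 0 in all 50 nuclei, where 3 UMIs, or 43.8 CPM, is the limit that a count of 0 allows. With doxorubicin 7 of 16 were past 2-fold and in control 4 of 16, among them Acta2 from the single nuclei named above. Without nuclei that held Acta2, Myh11 or Tagln, 5 of 17, 4 of 16 and 1 of 16 were.

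Basement membrane and adhesion genes followed. In the doxorubicin plus ACY-1083 library 13 of 28 were at least 2-fold above other nuclei, with a median log2 difference of 0.96. Itga1, the alpha-1 integrin that binds collagen, was at 423 against 6.19 CPM, Nid1 (nidogen) at 175 against 1.34 CPM, Lama2 at 627 against 58.3 CPM and Lama4 at 175 against 7.54 CPM. Col4a1 and Col4a2, the main collagen IV chains, had 2 and 3 UMIs, 3 and 3 UMIs, and 0 and 0 UMIs in the pericytes of the 3 libraries. Fn1, the fibronectin gene, was at 0 in the doxorubicin plus ACY-1083 and doxorubicin pericytes.

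Among 27 transporters outside the rule, 9 were at least 2-fold above other nuclei in the doxorubicin plus ACY-1083 library. Slc6a20a led. Slc30a10, a manganese exporter, had 27, 12 and 5 UMIs, or 394, 512 and 763 CPM, against 11.3 CPM in the other nuclei of the doxorubicin plus ACY-1083 library, and was past 2-fold in each library, with log2 differences of 3.73, 3.42 and 4.02. Slc22a8, an organic anion transporter, had 10, 3 and 1 UMIs. The monocarboxylate transporter gene Slc16a12 had 21, 0 and 0. The efflux pump gene Abcb1a, an endothelial marker, had 2, 0 and 0 UMIs in pericytes and 539 CPM in endothelial nuclei of the doxorubicin plus ACY-1083 library. Abcb1a was among the genes that chose those endothelial nuclei, so its level there is a description.

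Transcription factor genes of mural cells numbered 37 outside the rule, and 13 of these were at least 2-fold above other nuclei with doxorubicin plus ACY-1083. Zic1 and Zic4 had 17 and 19 UMIs, Tbx2 had 10, Tbx3 had 7, and the Notch target gene Heyl had 7. Tbx2 and Heyl were at 0 in the pericytes of the other libraries. Epas1, which encodes HIF-2α, was found in each, with 12, 4 and 1 UMIs, and Foxf2 was at 0 in each. Foxd1 had 5, 5 and 1 UMIs.

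Ebf1, a transcription factor gene, is part of the rule that chose these nuclei. The promoters of the 25 leading genes were searched for its motif, as a description of the letters alone. RefSeq promoters (GRCm38.p6, from 250 bases before to 50 after the start of a transcript) were found for 18 of the 25 genes, as 21 promoters. The letters CCCNNGGG, which are the same on both strands, occurred in 5 of the 21 (23.8%) and in 13.7% of all 32851 promoters. The 5 belong to 4 of the 18 genes, since 2 are windows of Egflam that overlap almost fully. These 5 windows were 63.0% to 72.7% G and C, where the median of all promoters was 52.7%, and base content was not matched. The RBPJ letters GTGGGAA of Notch signalling, on either strand, occurred in 1 of 21 against 6.38%, and the forkhead letters GTAAACA, on either strand, in 1 of 21 against 3.65%. The search windows are shown for Atp13a5, the leading gene, at chr16:29378683-29378982 on the minus strand with none of the 3 motifs, and for Notch3, at chr17:32166841-32167140 on the minus strand, where capitals mark the CCCNNGGG match.
Atp13a5: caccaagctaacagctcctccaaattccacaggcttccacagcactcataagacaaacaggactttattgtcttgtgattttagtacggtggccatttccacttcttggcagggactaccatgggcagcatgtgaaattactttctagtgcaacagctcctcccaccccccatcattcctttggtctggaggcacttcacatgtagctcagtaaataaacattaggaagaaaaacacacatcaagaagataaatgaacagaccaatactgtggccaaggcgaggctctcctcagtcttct
Notch3: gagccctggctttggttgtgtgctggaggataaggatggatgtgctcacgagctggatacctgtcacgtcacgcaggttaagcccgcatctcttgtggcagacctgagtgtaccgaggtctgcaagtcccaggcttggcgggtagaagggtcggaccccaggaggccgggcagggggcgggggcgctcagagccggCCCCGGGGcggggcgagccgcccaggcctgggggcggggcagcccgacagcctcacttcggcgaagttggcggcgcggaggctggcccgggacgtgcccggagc
The Atp13a5 window held 2 CpG and the Notch3 window 25, where the median of all promoters was 7.

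Signalling pathways that act on pericytes were read by list. In the doxorubicin plus ACY-1083 library 8 of 17 Notch genes were at least 2-fold above other nuclei, led by Notch3 (44 UMIs in 27 of 50 nuclei, 642 against 9.54 CPM) and including Heyl and Notch1. The Notch ligand genes Dll1, Dll4 and Jag2 were at 0. Of 13 PDGF genes besides Pdgfrb only the PI3-kinase subunit genes Pik3r1 and Pik3ca were, and the ligand gene Pdgfb had 2, 2 and 0 UMIs. Among 25 TGF-beta and BMP genes 5 were, namely Eng, Bmp5, Id3, Id1 and Smad5, while the receptor gene Tgfbr2 had 2, 0 and 0 UMIs. In the angiopoietin, VEGF and S1P list 1 of 17 was, S1pr3, and Angpt1 had 1, 1 and 0 UMIs. With doxorubicin, 3 of 17 Notch, 5 of 13 PDGF and 9 of 25 TGF-beta and BMP genes were past 2-fold. In the angiopoietin, VEGF and S1P list it was 4 of 17. The control counts in this order were 3, 1, 4 and 0. Of all genes, 8.95% with doxorubicin and 8.72% in control were, and a single UMI can carry a gene past 2-fold there.

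Genes of the p53 response and DNA damage, to which doxorubicin is tied, summed to 1226 CPM against 1122 CPM in other nuclei with doxorubicin plus ACY-1083, 1024 against 1305 CPM with doxorubicin and 1374 against 1353 CPM in control. Cdkn1a, the main target of p53, was at 0 in the pericytes of each library, and 1 of 31 p53 and DNA damage genes was at least 2-fold above other nuclei with doxorubicin plus ACY-1083, 2 of 31 with doxorubicin and 4 of 31 in control, where 5.73%, 8.95% and 8.72% of all genes were. Hdac6 had 0, 0 and 1 UMIs, with other nuclei at 27.7, 58.9 and 65.3 CPM. A count of 0 allows up to 43.8 CPM in the doxorubicin plus ACY-1083 pericytes and 128 CPM in the doxorubicin pericytes, so in neither could a level like that of other nuclei be told from absence. Of 13 histone deacetylase genes 0, 1 and 1 were past 2-fold. Inflammation and MHC genes past 2-fold numbered 2 of 25, 6 of 24 and 4 of 24. Antioxidant and metallothionein genes numbered 7 of 21, 8 of 21 and 7 of 21, with Mt3 at 28, 7 and 3 UMIs, and summed to 1255 against 590, 2602 against 1294 and 2137 against 1122 CPM. Immediate early genes numbered 2 of 20, 3 of 20 and 2 of 20, clock genes 7 of 18, 2 of 18 and 4 of 18, and glucocorticoid-induced genes 2 of 11, 2 of 11 and 4 of 11. Oxidative phosphorylation genes numbered 33 of 72, 14 of 72 and 28 of 72, with median log2 differences of 0.92, 0.51 and 0.45 and sums of 8435 against 3283, 12200 against 7397 and 10840 against 5786 CPM. At least 2-fold lower were 0, 4 and 30 of the 72. In control only 41 of the 72 had a UMI in pericytes, and 63.7% of all genes with a UMI there were past 2-fold higher. Several of these list counts lie near the shares of all genes.

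The effect of doxorubicin was read from 20 doxorubicin against 8 control pericyte nuclei, for the 72 genes with at least 20 UMIs in both together. At a CPM ratio of at least 2, 11 genes (15.3%) were higher, and at most 0.5, 5 genes (6.94%) were lower, with a median log2 ratio of 0.05. The 95% counting interval lay above 1 for 4 genes, Vtn, Slc1a2, Ttr and Gm47283, and below 1 for 4 genes, among them Ptgds, Tsix and Malat1. These intervals are not adjusted for the 72 genes compared. Scaling by the median ratio of the genes in place of the total gave 9 higher and 7 lower.

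Few pericyte genes had enough UMIs for this comparison. Of the rule genes, 4 had enough UMIs, with 2 above and 2 below a ratio of 1 and a median log2 ratio of -0.10. Each nucleus had to hold at least 3 rule genes, so the levels of these genes were set in part by the rule. Vtn had 71 UMIs in 18 of 20 doxorubicin nuclei and 9 UMIs in 6 of 8 control nuclei, a ratio of 2.20 (1.10 to 5.02). Without the 1 doxorubicin nucleus that held 24, the ratio was 1.52 (0.734 to 3.52), below the 2-fold mark, and among nuclei with at least 4 rule genes the log2 ratio was 0.39. Atp13a5 had a ratio of 0.908 (0.399 to 2.32), Pdgfrb 1.05 (0.469 to 2.65) and Ebf1 0.664 (0.277 to 1.75).

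The lower genes included a lipocalin whose interval lay below 1. Ptgds, a prostaglandin D synthase that leads in fibroblast-like nuclei (18392 CPM with doxorubicin and 20354 CPM in control), had 16 UMIs in 11 doxorubicin nuclei, at most 3 in one, and 16 UMIs in 5 control nuclei, 12 of them in one. Its ratio was 0.279 (0.131 to 0.597), and without nuclei that held Acta2, Myh11 or Tagln the log2 ratio was -0.01. Actb, Ppp3ca, Rbm39, Hsp90ab1, Malat1 and Snhg11 were also among the lower genes, with ratios of 0.454 to 0.931, and of these only Malat1 (0.929, 0.878 to 0.983) had an interval that stayed below 1. A single control nucleus held 8 of the 10 control UMIs of Rbm39, 6 of 9 of Ppp3ca and 22 of 30 of Snhg11. For Actb, Hsp90ab1 and Malat1 the most in 1 control nucleus was 3 of 8, 3 of 10 and 519 of 1566. Snhg11 turned direction among nuclei with at least 4 rule genes, to a log2 ratio of 1.70, and stood at 0.02 without doublets.

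Apart from Vtn, the higher genes described here were outside the pericyte lists. Cpe, a carboxypeptidase, had 20 UMIs with doxorubicin and 1 in control, and Itm2b 27 and 2. Nrxn3 had 20 and 2 UMIs, and 16 of the 20 were in 1 doxorubicin nucleus. Sparcl1 had 19 and 2, Ube3a 29 and 4, Arglu1 31 and 5, Apoe 81 and 14, and Srrm2 39 and 8, each with an interval across 1. The log2 ratio of Apoe was 0.65, and 1.12 without nuclei that held Acta2, Myh11 or Tagln. Beside these, the astrocyte gene Slc1a2 had 65 and 5 UMIs, a ratio of 3.63 (1.48 to 11.6), and 20 of the 65 were in 1 nucleus. Ttr, the choroid plexus gene, had 94 and 13 UMIs, a ratio of 2.02 (1.13 to 3.93), and was at 2986 against 1312 CPM in the other nuclei of the 2 libraries. Summed over 8 astrocyte genes, 12 of 20 doxorubicin and 3 of 8 control pericyte nuclei had a UMI, with 0 to 29 and 0 to 3 UMIs per nucleus, and Aqp4 at 0 by the rule. The part of this RNA in the higher genes was not tested.

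**Figure D4:**
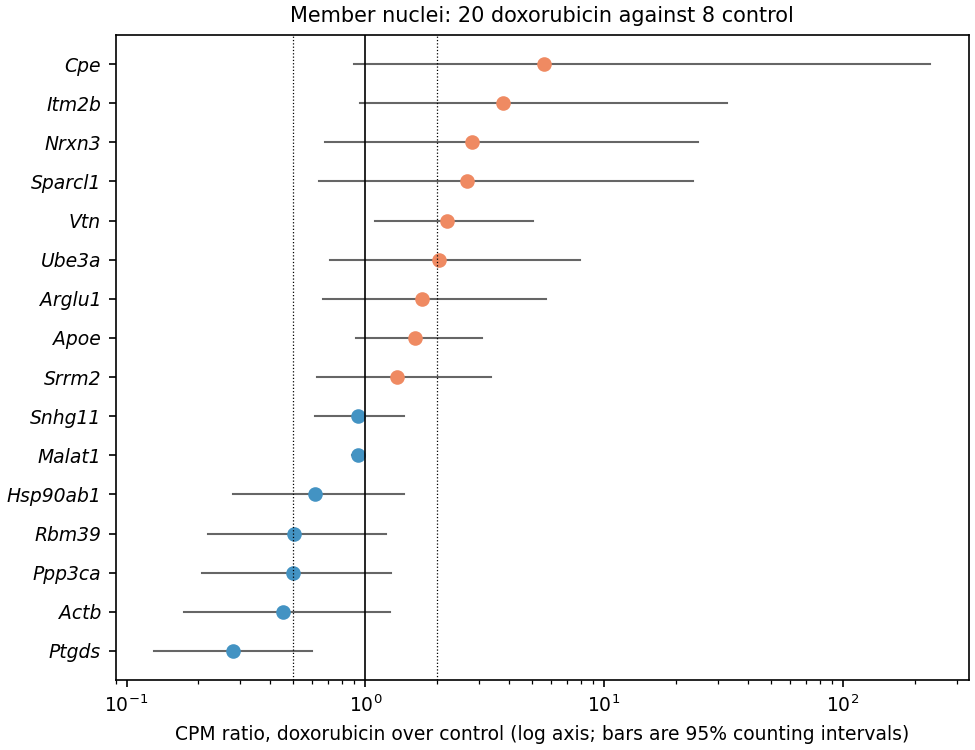
CPM ratio of 20 doxorubicin over 8 control pericyte nuclei (log axis) for 16 genes named by the rule, with exact 95% counting intervals; dotted lines mark 0.5 and 2. The interval of Vtn lies above 1 and those of Malat1 and Ptgds lie below it, while the other 13 cross 1.

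The addition of ACY-1083 was read from 50 doxorubicin plus ACY-1083 against 20 doxorubicin pericyte nuclei, over 666 genes. Here 288 genes (43.2%) had a ratio of at least 2 and 84 (12.6%) one of at most 0.5, with a median log2 ratio of 0.51, or 0.62 with the 59 genes at 0 in 1 library set to 3 UMIs there. Scaling by the median ratio gave 238 higher and 132 lower. A pericyte gene is therefore read against this background and not against a ratio of 1.

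Intron length went with these ratios. Genes whose longest transcript has introns of at most 2 kb in all were lower, with 4 of 30 above 1 and a median log2 ratio of -0.77. Genes with at least 50 kb were higher, with 365 of 458 above 1 and a median of 1.20. Between doxorubicin and control, both from Cell Ranger 4.0.0, the medians were -0.02 over 8 and -0.02 over 27 genes of the same classes. Malat1 made up 13.9%, 22.2% and 23.9% of the UMIs of pericytes in the doxorubicin plus ACY-1083, doxorubicin and control libraries. The handling of intronic reads is not given in sources used here, and program version and treatment cannot be told apart.

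Ratios of pericyte genes ran on both sides of 1, and those of rule genes were set in part by the rule. Vtn, with 1461 bp of introns, had 87 and 71 UMIs, a ratio of 0.419 (0.303 to 0.582). Atp13a5, with 142284 bp, had 188 and 26 UMIs, a ratio of 2.47 (1.64 to 3.89), Ebf1 2.38 (1.46 to 4.07) and Dlc1, with 377081 bp, 11.1 (5.30 to 27.9). Pdgfrb, with 34505 bp, lay at 0.741 (0.474 to 1.18). Other genes with introns of similar length differed: Rgs5 (36217 bp) was at 1.22 (0.514 to 3.35), Slc6a20a (40143 bp) at 3.62 (1.67 to 9.31) and Notch3 (38017 bp) had 44 and 0 UMIs. Cald1, with 172828 bp, was at 0.808 (0.541 to 1.23), unlike most genes with introns of at least 50 kb. In the other nuclei of the libraries Vtn was at 7.72 CPM with doxorubicin plus ACY-1083 and 18.7 CPM with doxorubicin, Atp13a5 at 7.12 and 4.25 CPM, and Dlc1 at 145 and 32.1 CPM, so each moved the same way outside the pericytes.

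By list, all 8 other pericyte genes compared were above 1 and 7 were at least 2-fold higher (median log2 ratio 1.84, or 1.96 with Notch3 set at 3 UMIs with doxorubicin). Among them were Notch3 (44 and 0 UMIs), Pde8b (115 and 4), Slc6a20a (74 and 7), Tbx3os1 (49 and 4), Colec12 (42 and 1), P2ry14 (19 and 3) and Art3 (17 and 4), the last at a ratio of 1.45. The introns of these genes run from 37253 to 221848 bp. Of the vasoactive list 19 of 20 genes were above 1, and Prkg1, the cGMP-dependent kinase, had 107 and 0 UMIs. Prkg1 was at 853 CPM in other nuclei with doxorubicin plus ACY-1083 and 27.8 CPM with doxorubicin. Oxidative phosphorylation genes, with introns of 1549 to 9335 bp where compared, went the other way, with 10 of 11 compared below 1 and a median of -0.70. Among them Atp5l had 9 and 13 UMIs, a ratio of 0.237 (0.0893 to 0.599).

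Within the short-intron genes, scaled to their own total, 2 of 30 were at least 2-fold higher and 2 of 30 lower. Vtn was the only rule gene or other pericyte gene among these 30.

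**Figure D5:**
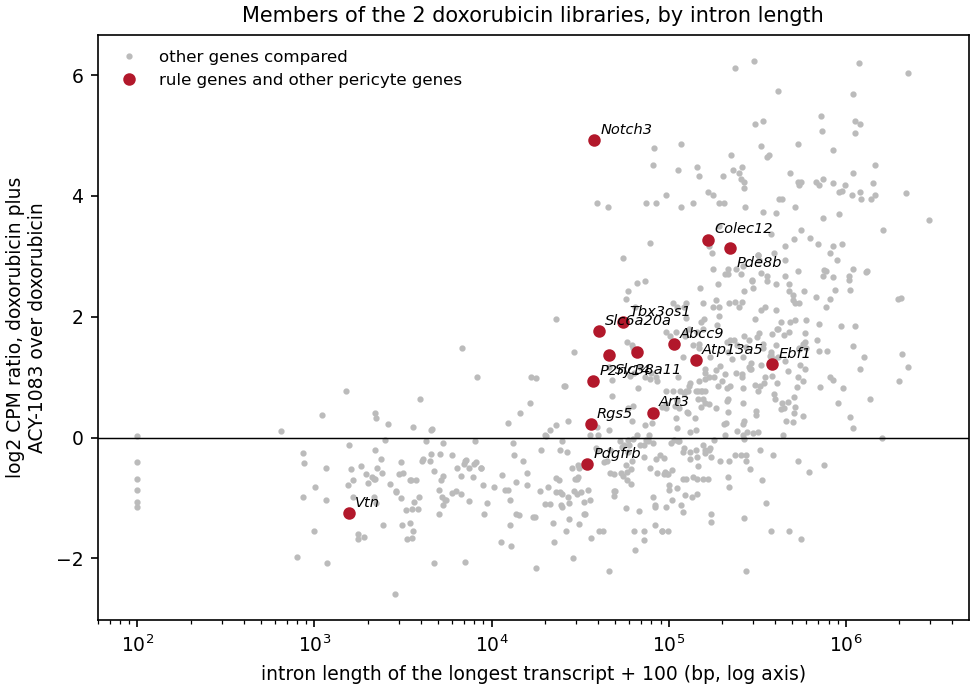
Log2 CPM ratio of doxorubicin plus ACY-1083 (50 nuclei) over doxorubicin (20 nuclei) against intron length of the longest transcript plus 100 bp (log axis) for the genes compared, with rule genes and other pericyte genes in red; Notch3 had 0 UMIs with doxorubicin and is placed with 0.5 UMI added. Genes with introns of at least 50 kb have a median of 1.20 and those with at most 2 kb a median of -0.77, and Vtn lies among the short-intron genes at -1.26.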

How the data were processed

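The members, gene lists and tests were chosen with earlier results of these data known, and the comparison nuclei (endothelial, fibroblast-like, neuron) after seeing the values. The files as deposited give unnormalized UMI counts by gene and barcode. Per the file headers they came from Cell Ranger 4.0.0 (doxorubicin, control) and 5.0.0 (doxorubicin plus ACY-1083), whereas Cell Ranger 6.0.0 and the mm10 build stand in the submitters' processing notes. No barcode was removed for the main values.

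From these counts UMIs were summed over the nuclei of a library and divided by their total (CPM). Intervals are exact 95% Poisson, Clopper-Pearson or conditional binomial, checked on simulated counts, and cover counting error only. Log2 ratios between libraries have 0.5 UMI added. For doxorubicin against control, the genes named are the 10 highest and 10 lowest by the interval bound nearest 1, without mitochondrial, ribosomal protein, hemoglobin, sex-linked, predicted and other-cell-type genes. For the leading genes, the rule required 10 UMIs in every library, and 21 genes had them. The single-library choice of 25 was added later. Some genes that these rules name are not reported here.

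Doublets were scored per library with Scrublet in scanpy 1.11.5. Its own threshold marked almost no barcode, so a score of 0.25 was used, which marked 344, 573 and 452 barcodes (doxorubicin plus ACY-1083, doxorubicin, control) and 1, 1 and 0 pericyte nuclei. As an alternative, nuclei with under 300 genes or at least 5% mitochondrial UMIs and these doublets were left out. GENCODE vM21 (GRCm38) gave coordinates and intron lengths for 32235 of the 32285 genes. Tools were Python 3.11.15, numpy 2.4.6, scipy 1.17.1 and pandas 2.3.3.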

Additional observations from a re-analysis of the deposited data

How the results depend on the processing

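Shares moved with the number of rule genes asked for: at least 2 of 7 gave 0.755% with doxorubicin plus ACY-1083, 0.491% with doxorubicin and 0.293% in control (a setting chosen after seeing the data), and at least 4 gave 0.0900% with doxorubicin. For doxorubicin against control, the counts of genes higher and lower were 7 and 3 of 59 without doublets, 5 and 2 of 26 at 4 rule genes, 3 and 1 of 21 at 40 UMIs, and 4763 and 1859 of 7793 with no UMI filter, 3 of 60 were lower without nuclei holding smooth muscle RNA, and 4 and 1 of 23 without nuclei richer in neuron or astrocyte than in pericyte UMIs (chosen after seeing the data). For doxorubicin plus ACY-1083 against doxorubicin they were 2 and 2 of 30 for short-intron genes, and 47 of 430 lower at 4 rule genes 132 of 666 lower with median scaling, and 152 and 48 of 313 without those richer nuclei; the cause was not tested. Among named genes, 4 values moved out of their intervals: Snhg11 to 1.70 at 4 rule genes (0.02 without doublets and 0.07 without those richer nuclei, against -0.12), Ptgds to -0.01 without nuclei holding smooth muscle RNA and Malat1 to -0.22 with median scaling and -0.20 without those richer nuclei, while 150 other values stayed within their intervals. Within intervals, Vtn moved to 0.39, Nrxn3 to 3.72 and Srrm2 to 1.28 at 4 rule genes. The control values rest on 8 nuclei and 6550 UMIs. No paired analysis was possible because each group is 1 library with no replicate number.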
